A study of Homo sapiens with 5 samples.

Results

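Metallothioneins are small cysteine-rich proteins that bind zinc and copper, and SLC30A1 (ZnT1) carries zinc out of the cell across the plasma membrane. The members described here are the metallothionein genes MT1E, MT1F, MT1G, MT1M, MT1X and MT2A together with SLC30A1, found by symbol and making up 7 of the 36601 genes in the count tables. They were followed in single cells of MDA-MB-468, an established human line from a triple-negative breast tumour, with and without PF0517515. This compound blocks acetyl-CoA carboxylase, which supplies malonyl-CoA to fatty acid synthesis.

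The 5 libraries were, with 1 per group, recovery cells sampled after 72 h of the inhibitor, cells given the inhibitor for 72 h, cells given it for 6 h, untreated cells at 72 h, and untreated cells at 0 h. All come from the same cell line. Dose, vehicle and duration of recovery are not stated in the labels. A single library per group leaves no spread between samples to measure a difference by, so there is no test. Ranges in parentheses are exact 95% intervals that cover counting error only.

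Zinc that enters a cell is held by metallothioneins or moved out by zinc transporters of the SLC30 family, while transporters of the SLC39 family bring zinc into the cytosol. When free zinc is high, the transcription factor MTF1 binds short DNA words called metal response elements in the promoters of metallothionein genes and of SLC30A1. Metallothionein genes also respond to cadmium, copper, oxidants and glucocorticoids, so their RNA is not a readout of zinc alone.

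The promoters of MT2A, MT1X, MT1H and SLC30A1 show the words that MTF1 is known to read. Each sequence covers the 250 bases before the transcription start, from RefSeq on GRCh38.p14, printed 5′ to 3′ on the strand of the gene. Capitals mark the core of the metal response element, searched as TGCACNC or TGCGCNC on both strands, with no overlap between matches. MT2A and MT1X are the most abundant members, SLC30A1 is the exporter, and MT1H is a family member with almost no RNA in these cells.
MT2A, chr16:56608334-56608583, plus strand: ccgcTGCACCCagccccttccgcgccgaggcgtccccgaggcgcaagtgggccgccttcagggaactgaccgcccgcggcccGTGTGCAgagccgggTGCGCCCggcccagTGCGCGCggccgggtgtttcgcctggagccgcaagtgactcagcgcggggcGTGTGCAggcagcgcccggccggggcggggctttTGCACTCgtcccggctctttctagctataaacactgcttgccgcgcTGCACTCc
MT1X, chr16:56682220-56682469, plus strand: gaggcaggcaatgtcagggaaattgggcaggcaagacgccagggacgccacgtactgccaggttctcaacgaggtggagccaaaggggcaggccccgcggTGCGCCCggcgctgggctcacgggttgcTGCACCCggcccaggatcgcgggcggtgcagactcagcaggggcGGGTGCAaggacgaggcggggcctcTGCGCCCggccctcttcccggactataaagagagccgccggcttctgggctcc
MT1H, chr16:56669564-56669813, plus strand: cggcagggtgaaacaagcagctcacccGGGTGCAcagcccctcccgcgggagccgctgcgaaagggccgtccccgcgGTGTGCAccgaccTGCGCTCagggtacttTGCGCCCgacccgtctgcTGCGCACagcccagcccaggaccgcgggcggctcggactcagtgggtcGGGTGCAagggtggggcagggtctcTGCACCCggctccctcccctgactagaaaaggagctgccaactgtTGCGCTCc
SLC30A1, chr1:211579162-211579411, minus strand: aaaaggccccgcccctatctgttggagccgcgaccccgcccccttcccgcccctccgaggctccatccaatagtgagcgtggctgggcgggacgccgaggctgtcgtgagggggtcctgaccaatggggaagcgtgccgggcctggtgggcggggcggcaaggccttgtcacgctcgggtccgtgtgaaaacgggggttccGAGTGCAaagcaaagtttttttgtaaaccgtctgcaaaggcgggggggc

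The core occurred 7 times before MT2A, 4 times before MT1X, 8 times before MT1H and 1 time before SLC30A1. Of 35116 promoter windows of the same length, 24.8% held the core at least 1 time, 0.370% at least 4 times and 0.0513% at least 6 times. A single match is thus common among promoters, while the counts before the 3 metallothionein genes are not. The promoters of the metallothioneins MT1B and MT4, not printed here, held the core 3 times each, and 1.58% of windows held it at least 3 times. RefSeq starts SLC30A1 419 bases upstream of the GENCODE 29 start, while it starts MT2A 385 bases and MT1X 46 bases downstream of theirs and MT1H at the same base. The windows thus depend on which start is used, and that of MT2A lies wholly inside its GENCODE gene. The promoter table held 3 of the 7 members, and MT1E, MT1F, MT1G and MT1M are only named. A match describes the letters and does not show that a factor bound there.

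The 6 metallothionein members lie in the family's cluster on chromosome 16, with coordinates here from GENCODE 29 on GRCh38. In order along the chromosome they are MT2A (ENSG00000125148, 56608199 to 56609497, plus strand), MT1E (ENSG00000169715, 56625475 to 56627112, plus), MT1M (ENSG00000205364, 56632233 to 56633986, plus), MT1F (ENSG00000198417, 56657694 to 56660698, plus), MT1G (ENSG00000125144, 56666731 to 56668065, minus) and MT1X (ENSG00000187193, 56682424 to 56684196, plus). SLC30A1 (ENSG00000170385) lies on chromosome 1 at 211571568 to 211578742, minus strand. Neighbours in the cluster were far apart in level. MT1M, MT1A and MT1B, which lie between MT1E and MT1F, had at most 0.0187 CPM in any library (CPM are counts of unique molecular identifiers, UMIs, scaled to the library total).

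Members of this family resemble each other, and reads were counted in a 3′ assay, so the last 300 bases of each transcript were compared with all other annotated transcripts. No stretch of 90 bases of any member was shared letter for letter with the transcript of another gene. At 60 bases the shared share was 0 to 10.4% of the stretches of a member, and at 30 bases 0 to 45.0%. Counts of single metallothionein genes therefore carry some uncertainty from short or mismatched reads, which was not measured. The sum over the family does not depend on how reads were split among its members. It could still change with reads dropped for matching several genes, or counted for a gene outside the sum. At 60 bases the shared stretches of MT1X were found in AC026461.1, which is not in the sum. Shared stretches of MT2A were found in MT1P1, MT1XP1 and MT2P1 as well as in members, and those of MT1F in MT1P3 as well as in members. These further genes are not in the sum either. How such reads were handled is not stated.

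The libraries kept 3537 of 3679 barcodes in recovery, 1927 of 2057 at 72 h of inhibitor, 3006 of 3016 at 6 h of inhibitor, 2920 of 2995 at 72 h untreated and 3705 of 3736 at 0 h untreated. They held 85376888 to 114350566 UMIs, with a median of 26540 to 41573 per cell, highest at 72 h of inhibitor. The median share of mitochondrially encoded UMIs was 2.55% in recovery, 3.31% at 72 h of inhibitor, 6.06% at 6 h of inhibitor, 6.17% at 72 h untreated and 5.63% at 0 h untreated. All 9 epithelial markers were present at 22.9 to 4397 CPM, and none of 12 markers of blood, vessel and stromal cells reached 10 CPM. Of 15068 barcode sequences of kept cells, 27 occurred in more than 1 library.

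MT2A and MT1X carried the family in every library. MT2A, the most widely expressed metallothionein, stood at 3169 CPM in recovery, 2090.3 CPM at 72 h of inhibitor, 3258 CPM at 6 h of inhibitor, 2737 CPM at 72 h untreated and 2618 CPM at 0 h untreated. MT1X, an isoform of the MT1 group, stood at 1478 CPM in recovery, 1204 CPM at 72 h of inhibitor, 499.5 CPM at 6 h of inhibitor, 659.7 CPM at 72 h untreated and 393 CPM at 0 h untreated. The 72 h inhibitor library was thus the lowest of the 5 for MT2A and the second highest for MT1X.

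MT1F and MT1E, which also belong to the MT1 group, were much less abundant. MT1F had 251 CPM in recovery, 125 CPM at 72 h of inhibitor, 68.9 CPM at 6 h of inhibitor, 121 CPM at 72 h untreated and 56.9 CPM at 0 h untreated. MT1E had 48.5 CPM in recovery, 34.2 CPM at 72 h of inhibitor, 28.0 CPM at 6 h of inhibitor, 29.1 CPM at 72 h untreated and 22.1 CPM at 0 h untreated. Both were highest in recovery and lowest at 0 h. Only the step of MT1E between 72 h untreated and 6 h of inhibitor had an interval that included no difference.

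MT1G and MT1M were close to silent. MT1G had 17 UMIs in recovery, 5 at 72 h of inhibitor, 9 at 6 h of inhibitor, 4 at 72 h untreated and 7 at 0 h untreated. MT1M had 1 UMI in recovery, 2 at 6 h of inhibitor and 0 in the other libraries, where 3 counts would be 0.0262 to 0.0351 CPM. Neither reached the minimum of 10 CPM that a gene needed in at least 1 of both libraries to enter a comparison. Of the 6 other metallothioneins in the tables, MT1B, MT1HL1 and MT3 had 0 UMIs in every library, and MT1A, MT1H and MT4 had at most 0.0525 CPM.

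SLC30A1 was set apart by the inhibitor and recovery libraries of the late times. It had 34.1 CPM in recovery, 28.1 CPM at 72 h of inhibitor, 9.78 CPM at 6 h of inhibitor, 8.75 CPM at 72 h untreated and 8.03 CPM at 0 h untreated. The untreated libraries did not differ beyond counting error, with 1.09-fold (0.991 to 1.199) between 72 h and 0 h. Each other step in its order had an interval that left out no difference.

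**Figure D1:**
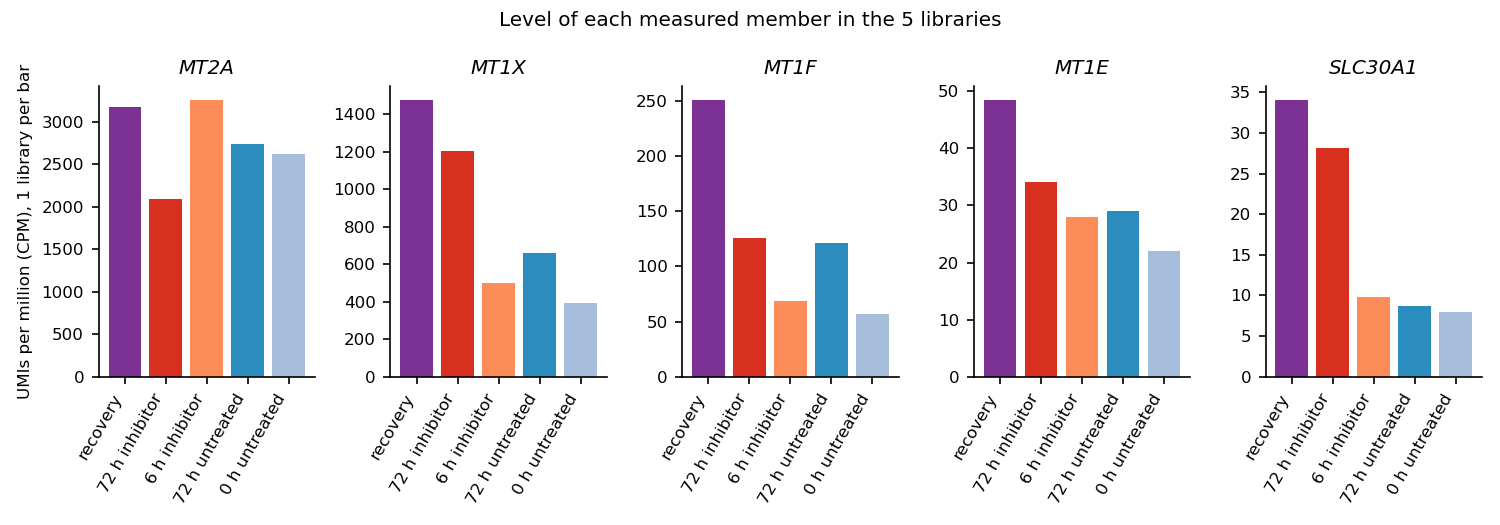
Level of each of the 5 measured members in the 5 libraries, as bars in CPM on linear axes that start at 0 and differ between genes, 1 library per bar. SLC30A1 is high in recovery and at 72 h of inhibitor, at 34.1 and 28.1 CPM, while MT2A is lowest at 72 h of inhibitor, at 2090.3 CPM.

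The first comparison asked how the members differed between cells after 72 h of the inhibitor and untreated cells of the same time. SLC30A1 was 3.21-fold (2.96 to 3.48) higher and MT1X 1.83-fold (1.81 to 1.84) higher in the inhibitor library, while MT2A was 1.31-fold (1.30 to 1.32) lower. MT1E was 1.18-fold (1.11 to 1.24) higher and MT1F 1.03-fold (1.00 to 1.06) higher. The summed metallothioneins came to 3454 CPM at 72 h of inhibitor and 3547 CPM at 72 h untreated, 1.03-fold (1.02 to 1.03) lower, and slightly higher under several other settings. Over all kept cells the family's share of all UMIs was therefore nearly level, while its make-up was not. The level sum is a mix of cell classes. Among cells outside the class low in both cell cycle lists, described further on, the sum was 1.35-fold (1.32 to 1.38) higher. CPM gives a share and not an amount per cell. Unscaled, a kept cell had a mean of 153 metallothionein UMIs at 72 h of inhibitor and 114 at 72 h untreated. For MT2A these means were 92.6 and 88.0. The median depth of the cells also differed, at 41573 and 29231.5 UMIs.

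Of the 7 members, 5 were measured in this comparison, and 1 of them, SLC30A1, was more than 2-fold higher, where 1.98% of the 9346 tested genes were. SLC30A1 stood above 99.6% of the tested genes by its ratio and MT1X above 97.0%. MT1E stood above 78.2%, MT1F above 64.7% and MT2A above 31.6%. MT1X reached 2.001-fold under median-of-ratios scaling, and against 0 h in place of 72 h untreated MT1X was 3.07-fold and MT1F 2.20-fold higher. None was more than 2-fold lower, where 7.35% of tested genes were. The median log2 ratio was 0.23 over the 5 measured members and -0.14 over all tested genes.

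The make-up of the family is read within each library, so it does not depend on how libraries are scaled. UMIs count molecules at their 3′ end and were not divided by transcript length. For every 100 UMIs of MT2A there were 46.6 of MT1X in recovery, 57.6 at 72 h of inhibitor, 15.3 at 6 h of inhibitor, 24.1 at 72 h untreated and 15.0 at 0 h untreated. MT1X relative to MT2A was 2.39-fold (2.36 to 2.42) higher at 72 h of inhibitor than at 72 h untreated. In all, MT1X supplied 34.9% of metallothionein UMIs at 72 h of inhibitor and 18.6% at 72 h untreated, and MT2A 60.5% and 77.2%.

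**Figure D2:**
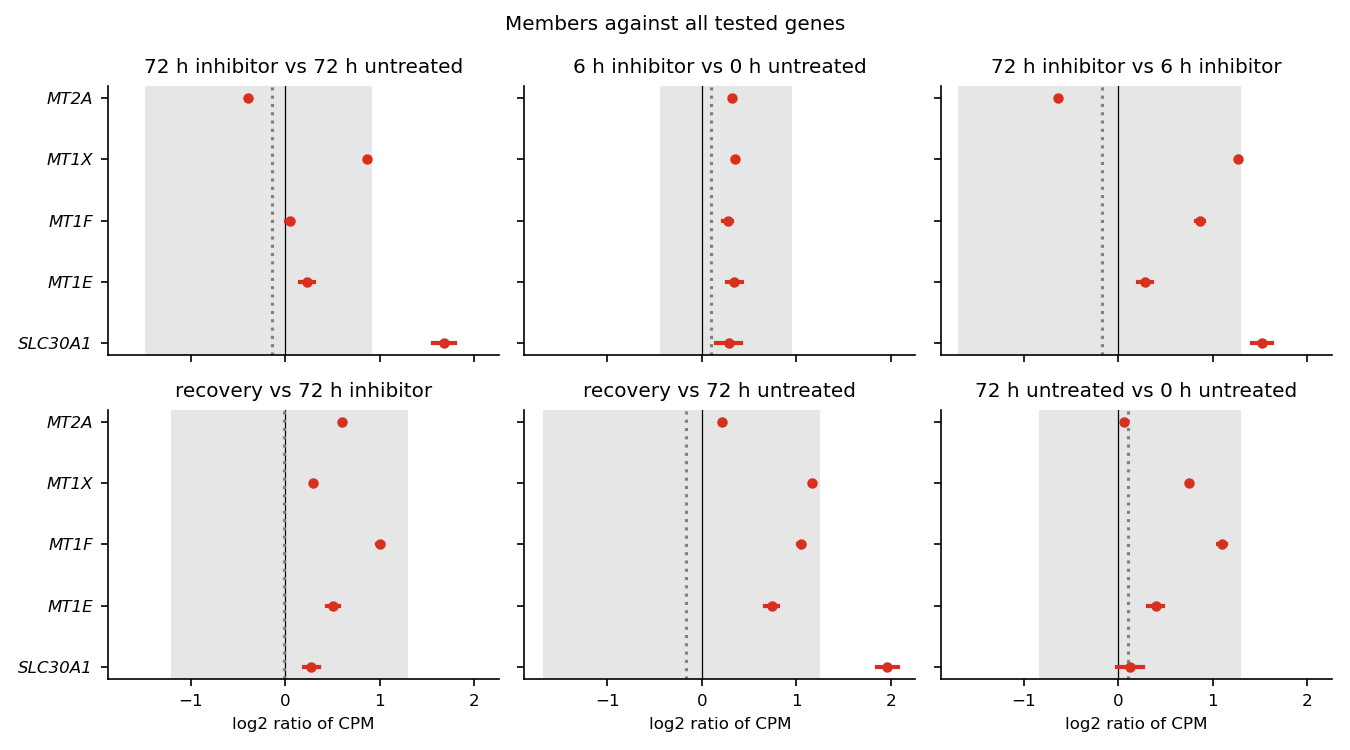
Log2 ratio of CPM of 5 members in the 6 comparisons, as points with exact 95% intervals of counting error; the dotted line is the median of all tested genes and the grey band holds their middle 95%. At 72 h of inhibitor against 72 h untreated, SLC30A1 lies at 1.68, outside the band, MT1X at 0.87, inside it and near its edge, and MT2A at -0.39; SLC30A1 is drawn also in the comparisons with 0 h, where it was under the minimum.

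A second comparison set 6 h of the inhibitor beside 0 h untreated. There is no untreated library of 6 h, so the inhibitor and time in culture cannot be told apart here. The measured metallothioneins were each higher than at 0 h untreated by a similar amount. MT1E was 1.27-fold (1.20 to 1.34) higher, MT1X 1.27-fold (1.26 to 1.29), MT2A 1.24-fold (1.24 to 1.25) and MT1F 1.21-fold (1.17 to 1.25). Such ratios were common, as MT1E stood above 73.2% of the tested genes, MT1X above 73.3%, MT2A above 71.1% and MT1F above 67.8%. The median log2 ratio over all tested genes was 0.10. None of these 4 members was more than 2-fold higher, as were 1.99% of the 9075 tested genes, and none more than 2-fold lower, as were 0.132%. SLC30A1, under the minimum here, had 9.78 CPM at 6 h of inhibitor and 8.03 CPM at 0 h untreated, 1.22-fold (1.11 to 1.33) higher. MT1X relative to MT2A differed by 1.02-fold (1.01 to 1.04), so the make-up at 6 h was close to that at 0 h. Set beside the 72 h untreated library in place of 0 h, MT1E, MT1F and MT1X at 6 h were lower, with log2 ratios of -0.05, -0.82 and -0.40.

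Between 6 h and 72 h of the inhibitor, SLC30A1, MT1X and MT1F were higher at 72 h and MT2A was lower. SLC30A1 was 2.87-fold (2.67 to 3.09) higher, MT1X 2.41-fold (2.39 to 2.44) higher, MT1F 1.82-fold (1.77 to 1.87) higher and MT1E 1.22-fold (1.16 to 1.28) higher, while MT2A was 1.56-fold (1.55 to 1.57) lower. Of the 5 measured members 2, SLC30A1 and MT1X, were more than 2-fold higher, where 4.56% of the 9359 tested genes were, and 0 more than 2-fold lower, where 11.2% were. MT1F passed 2-fold under median-of-ratios scaling, at 2.03-fold. Time in culture runs along with time in the inhibitor here. The untreated libraries also differ in time, but from 0 h and not from 6 h, so they do not give the part of culture time in this comparison.

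In untreated cells, MT1F and MT1X were higher at 72 h than at 0 h and MT2A was nearly level. MT1F was 2.14-fold (2.07 to 2.20) higher, MT1X 1.68-fold (1.66 to 1.70) higher, MT1E 1.32-fold (1.25 to 1.39) higher and MT2A 1.05-fold (1.04 to 1.05) higher. Of the 4 measured members 1, MT1F, was more than 2-fold higher, where 5.56% of the 9303 tested genes were, and 0 more than 2-fold lower, where 1.48% were. That call of MT1F ended under median-of-ratios scaling, at 1.98-fold, and among cells low in both cell cycle lists, at 1.80-fold. MT1X relative to MT2A was 1.61-fold (1.58 to 1.63) higher. MT1X and MT1F were thus higher at 72 h without the inhibitor too, whereas SLC30A1 stood at 8.75 CPM at 72 h and 8.03 CPM at 0 h.

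In recovery, all 5 measured members were higher than at 72 h untreated, MT2A included. SLC30A1 was 3.89-fold (3.60 to 4.20) higher, MT1X 2.24-fold (2.22 to 2.26) higher, MT1F 2.07-fold (2.02 to 2.11) higher, MT1E 1.67-fold (1.59 to 1.75) higher and MT2A 1.16-fold (1.15 to 1.16) higher. Of the 5 measured members 3 were more than 2-fold higher, where 4.52% of the 9405 tested genes were, and 0 more than 2-fold lower, where 11% were. The summed metallothioneins were at 4946 CPM in recovery and 3547 CPM at 72 h untreated, 1.39-fold (1.39 to 1.40) higher. MT1G, with 17 UMIs in recovery and 4 at 72 h untreated, had an interval of 1.27 to 15.96-fold higher, at a level far below the minimum.

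Set beside the library at 72 h of inhibitor, all 5 measured members had a higher CPM in recovery, and the ratio differed by gene. MT1F was 2.002-fold (1.958 to 2.05) higher, MT2A 1.52-fold (1.51 to 1.52) higher, MT1E 1.42-fold (1.36 to 1.49) higher, MT1X 1.23-fold (1.22 to 1.24) higher and SLC30A1 1.21-fold (1.15 to 1.28) higher. Unscaled, a kept cell had a mean of 143 metallothionein UMIs in recovery and 153 at 72 h of inhibitor. Such means were lower in recovery for MT2A (91.5 and 92.6), MT1X (42.7 and 53.4), MT1E (1.40 and 1.51) and SLC30A1 (0.984 and 1.24). For MT1F the mean was higher (7.25 and 5.55). Median depth also differed, at 26540 and 41573 UMIs. MT1F was the 1 member past 2-fold, where 5.09% of the 8943 tested genes were higher and 4.22% lower by that much. It sat at the limit, and under 4 alternatives it was 1.87-fold to 1.99-fold higher, which ends the call. MT1X relative to MT2A was lower in recovery, at 0.809 (0.801 to 0.817) of its value at 72 h of inhibitor. The comparisons above share libraries, and so are not independent of each other.

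For values per cell, UMIs were drawn at random down to 5000 in every cell that had as many, which kept 3462 cells in recovery, 1868 at 72 h of inhibitor, 2996 at 6 h of inhibitor, 2885 at 72 h untreated and 3700 at 0 h untreated. At that depth 97.1% (96.2 to 97.8) of cells at 72 h of inhibitor and 99.2% (98.8 to 99.5) at 72 h untreated had at least 1 metallothionein UMI. Before thinning the shares were 98.8% and 99.6%. These libraries hold no cell type that should lack metallothioneins, so the part of free RNA in such shares could not be read.

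Metallothionein RNA was more unevenly spread among cells at 72 h of inhibitor. The variance of the summed count over its mean was 12.9 in recovery, 29.9 at 72 h of inhibitor, 10.3 at 6 h of inhibitor, 11.8 at 72 h untreated and 5.72 at 0 h untreated. The mean was 17.4 UMIs per cell at 72 h of inhibitor and 17.3 at 72 h untreated, while the median was 10 and 13. The lowest and the most extreme counts held more cells at 72 h of inhibitor, but the upper part in between did not differ as much. Taking the 90th percentile of untreated cells at 0 h as a limit, above it lay 28.2% of cells in recovery, 17.0% at 72 h of inhibitor, 18.2% at 6 h of inhibitor and 16.2% at 72 h untreated for the summed count, and for MT2A 12.1% at 72 h of inhibitor and 15.1% at 72 h untreated. The median cell had 12 MT2A UMIs in recovery, 5 at 72 h of inhibitor, 13 at 6 h of inhibitor, 10 at 72 h untreated and 12 at 0 h untreated. For MT1X the median was 6 in recovery, 4 at 72 h of inhibitor, 2 at 6 h of inhibitor, 3 at 72 h untreated and 2 at 0 h untreated.

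At the low end, 180 of 1868 cells at 72 h of inhibitor had no MT2A UMI, 9.64% (8.34 to 11.1), and 73 of 2885 at 72 h untreated, 2.53% (1.99 to 3.17). The share was 1.01% in recovery, 0.768% at 6 h of inhibitor and 0.486% at 0 h untreated. The cells without MT2A at 72 h of inhibitor still had MT1X at 284 CPM, and 86.7% of them were low in both cell cycle lists, against 75.3% of all cells of that library.

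In the extreme tail, 65 of 1868 cells at 72 h of inhibitor, 3.48% (2.70 to 4.41), had more metallothionein UMIs than any cell of the 0 h untreated library, whose highest cell had 72. These 65 cells held 21.3% of the library's thinned metallothionein UMIs. In recovery 76 cells, 2.20% (1.73 to 2.74), lay above that level, and at 72 h untreated 23 cells, 0.797% (0.506 to 1.19). At 6 h of inhibitor there were 24, 0.801% (0.514 to 1.19). In these cells at 72 h of inhibitor, MT2A was at 14809 CPM and MT1X at 5745 CPM. Of them 36.9% were low in both cell cycle lists, against 75.3% of all cells of that library, and their mean count of G2/M genes was 30.6 UMIs, against 13.6. The part of the cell cycle in this tail was not tested. Their median depth before thinning was 37108 UMIs, against 42464 in all thinned cells of the library.

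**Figure D3:**
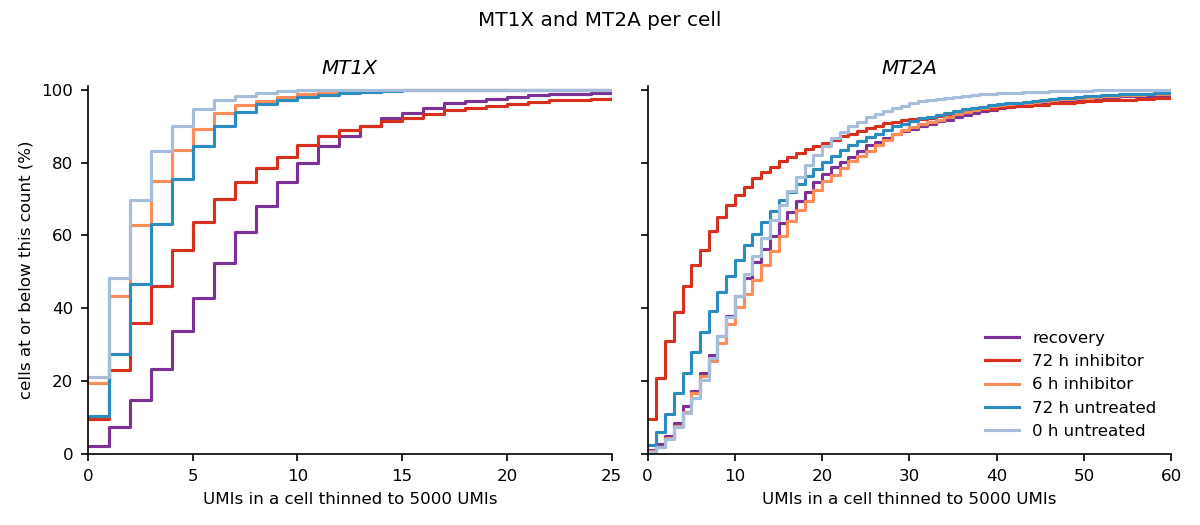
Share of cells, in percent, at or below each count of MT1X (left) and MT2A (right) after thinning to 5000 UMIs, with 1 line per library. For MT2A the 72 h inhibitor line starts highest, with 9.64% of cells at 0 UMIs, and has a median of 5 against 10 at 72 h untreated; for MT1X the recovery and 72 h inhibitor lines lie below the others over most counts, with medians of 6 and 4.

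MT2A and MT1X varied together from cell to cell. Their Pearson r across the thinned cells of a library was 0.61 in recovery, 0.72 at 72 h of inhibitor, 0.52 at 6 h of inhibitor, 0.50 at 72 h untreated and 0.40 at 0 h untreated, a description over cells that share a library and a depth. MT1F followed them less closely, with r of 0.14 to 0.37 to MT2A, and so did MT1E, with 0.13 to 0.28. SLC30A1 showed no such relation, with r of -0.04 to 0.03 to MT2A and -0.04 to 0.04 to MT1X. Its counts are sparse, and values near 0 there are no finding.

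The shift towards MT1X was present across single cells and not in a few of them. Among cells with at least 10 UMIs of MT1X and MT2A together, the median share of MT1X was 32.1% in recovery, 35.7% at 72 h of inhibitor, 12.2% at 6 h of inhibitor, 18.2% at 72 h untreated and 11.8% at 0 h untreated. The lower quartile at 72 h of inhibitor, 26.9%, was close to the upper quartile at 72 h untreated, 27.3%. MT1X exceeded MT2A in 143 of 910 such cells at 72 h of inhibitor, 15.7%, and in 35 of 1847 at 72 h untreated, 1.89%. The minimum kept 48.7% of thinned cells at 72 h of inhibitor and 64.0% at 72 h untreated, so the cells with least metallothionein are not in these shares.

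**Figure D4:**
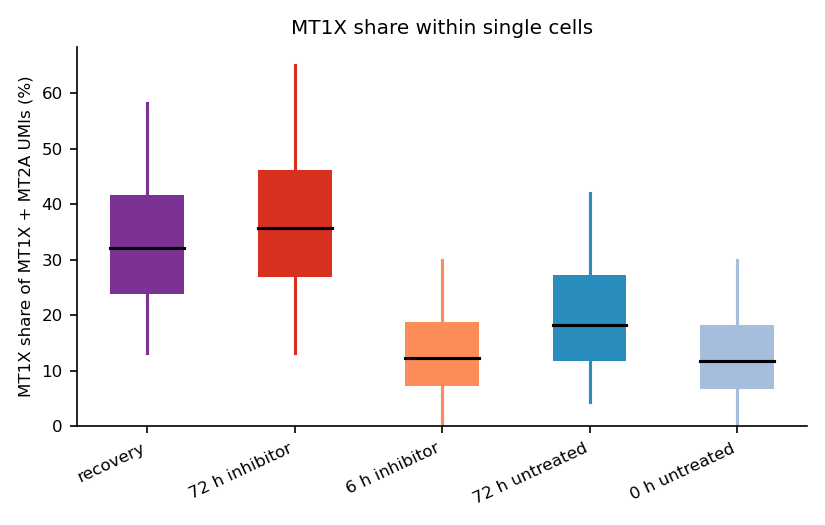
Share of MT1X in the MT1X and MT2A UMIs of a cell, in percent, for thinned cells with at least 10 UMIs of both genes together. Lines are medians, boxes the quartiles and whiskers the 5th and 95th percentiles; the medians are 32.1% in recovery and 35.7% at 72 h of inhibitor, and 18.2% or less in the other libraries.

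MT1E counts were uneven among cells. After thinning, 9.15% of cells had an MT1E UMI at 72 h of inhibitor and 10.2% at 72 h untreated, while without thinning 30.05% and 29.2% had one, and 39.7% in recovery. A cell without a UMI at this depth may still express the gene. The variance over mean of MT1E was 3.87 at 72 h of inhibitor and 1.70 at 72 h untreated. At 72 h of inhibitor 7 of 1868 cells had at least 5 MT1E UMIs, and these held 22.01% of the thinned MT1E UMIs of the library. In recovery 15 cells passed that count and held 13.7%, and at 72 h untreated 3 cells held 5.03%. The level of MT1E in a library therefore rests in part on a handful of cells.

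SLC30A1 gave few UMIs per cell. After thinning, 15.8% (14.6 to 17.1) of cells had a UMI in recovery, 13.2% (11.7 to 14.8) at 72 h of inhibitor, 4.51% (3.79 to 5.31) at 6 h of inhibitor, 4.44% (3.71 to 5.25) at 72 h untreated and 4% (3.39 to 4.68) at 0 h untreated. Without thinning the shares were 56.2%, 59.0%, 27.9%, 23.2% and 21.2% in the same order of libraries. With a mean of 0.18 UMIs per thinned cell in recovery and 0.15 at 72 h of inhibitor, its spread between cells could not be read. At 72 h of inhibitor, cells with an SLC30A1 UMI had MT2A at 2084 CPM and cells without one had 2144 CPM.

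Genes of the cell cycle differed between these libraries, and metallothionein RNA varied with them from cell to cell. The r of MT2A to the summed UMIs of 52 G2/M genes was 0.16 to 0.36, and that of MT1X 0.07 to 0.18. Cells at or below the 0 h untreated median for both a list of 42 S phase genes and the G2/M list made up 75.3% of cells at 72 h of inhibitor and 47.0% at 72 h untreated. This class is a range and not a cell type, and 7.82% of cells at 72 h of inhibitor and 14.2% at 72 h untreated lay within 1 UMI of a limit.

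Within those classes the direction of MT2A was not the same. Among cells low in both lists MT2A was at 1635 CPM at 72 h of inhibitor and 2082 CPM at 72 h untreated, 1.27-fold (1.24 to 1.30) lower. Among the other cells it was at 3666 CPM at 72 h of inhibitor and 3192 CPM at 72 h untreated, 1.15-fold (1.12 to 1.18) higher. MT1X was higher at 72 h of inhibitor in both, by 1.77-fold (1.71 to 1.84) among low cells and 2.28-fold (2.18 to 2.38) among the others. SLC30A1 was likewise higher in both, by 3.70-fold (2.71 to 5.14) and 3.40-fold (2.47 to 4.68). With 1 library per group, a difference between the classes was not tested.

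The share of mitochondrial UMIs, lower at 72 h of inhibitor and in recovery than in the other libraries, was also set beside the members. Its r to the summed metallothioneins across cells was -0.26 in recovery, -0.12 at 72 h of inhibitor, 0.05 at 6 h of inhibitor, -0.05 at 72 h untreated and -0.03 at 0 h untreated. Among cells with 20000 UMIs or more and 10% mitochondrial UMIs or less, the log2 ratios at 72 h of inhibitor against 72 h untreated were 1.64 for SLC30A1, 0.87 for MT1X and -0.41 for MT2A, close to the 1.68, 0.87 and -0.39 of all kept cells.

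The classes also differed in the comparison at 6 h. Among low cells MT2A was at 2579 CPM at 6 h of inhibitor and 2571 CPM at 0 h untreated, a ratio of 1.00 (0.979 to 1.03). Among the other cells it was 1.29-fold (1.27 to 1.31) higher at 6 h, at 3429 CPM against 2652 CPM. Between recovery and 72 h of inhibitor, MT2A was 1.33-fold (1.30 to 1.36) higher among low cells and 1.05-fold (1.02 to 1.07) higher among the others. MT1X among those other cells was at 1612 CPM in recovery and 1566 CPM at 72 h of inhibitor, 1.03-fold (0.993 to 1.07). SLC30A1 was 1.39-fold (1.15 to 1.67) higher in recovery among low cells. Among the others its ratio was 0.912 (0.714 to 1.18), and that of MT1E 1.02 (0.836 to 1.26), with intervals that included no difference.

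The other measured zinc transporters differed less than SLC30A1 at 72 h of inhibitor against 72 h untreated. Of 9 other SLC30 genes 4 were measured at 72 h of inhibitor against 72 h untreated, where 3 were higher and 1 lower. Of all 9346 tested genes 3648 were higher and 5698 lower. None of the 4 was more than 2-fold apart, where 1.98% of tested genes were higher and 7.35% lower by that much. Their median log2 ratio was 0.34, beside -0.14 over all tested genes. SLC30A5, which with SLC30A6 moves zinc into the early secretory pathway, was at 49.5 CPM at 72 h of inhibitor and 38.9 CPM at 72 h untreated, 1.27-fold (1.22 to 1.33) higher. SLC30A6 was 1.27-fold (1.20 to 1.34) higher, and SLC30A7, which loads zinc into Golgi vesicles, 1.27-fold (1.21 to 1.33) higher. SLC30A9 was 1.18-fold (1.12 to 1.24) lower. In recovery against 72 h untreated, SLC30A5 stood out among these 4, at 81.8 CPM against 38.9 CPM, 2.10-fold (2.02 to 2.19) higher. Between recovery and 72 h of inhibitor, where SLC30A1 was 1.21-fold higher, SLC30A5 was 1.65-fold (1.59 to 1.72) higher and SLC30A6 1.59-fold (1.496 to 1.69) lower.

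Of 14 SLC39 importers 8 were measured at 72 h of inhibitor against 72 h untreated, and 5 were lower and 3 higher. This is near the share over all tested genes, of which 5698 of 9346 were lower. Again none was more than 2-fold apart, and the median log2 ratio was -0.33, beside -0.14 over all tested genes. SLC39A3 was at 15.6 CPM at 72 h of inhibitor and 28.8 CPM at 72 h untreated, 1.84-fold (1.72 to 1.97) lower. SLC39A11 was 1.39-fold (1.34 to 1.45) lower, SLC39A1, an importer at the plasma membrane, 1.32-fold (1.27 to 1.38), SLC39A4, the importer of dietary zinc in gut, 1.27-fold (1.19 to 1.35), and SLC39A9 1.24-fold (1.15 to 1.35). SLC39A7, which releases zinc from the endoplasmic reticulum, was higher at 85.7 CPM against 74.5 CPM, 1.15-fold (1.11 to 1.19). SLC39A13 was 1.25-fold (1.14 to 1.37) higher, and SLC39A6 differed by 1.06-fold (0.976 to 1.15). SLC39A8, SLC39A10 and SLC39A14 passed the minimum in other comparisons and had 6.28, 5.76 and 8.94 CPM at 72 h of inhibitor, against 9.83, 9.94 and 8.19 CPM at 72 h untreated. In recovery SLC39A7 was at 115 CPM, the highest of the 5 libraries, while SLC39A3 and SLC39A4 were at 15.9 and 15.4 CPM.

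At 6 h of inhibitor against 0 h untreated, all 4 measured SLC30 genes other than SLC30A1 were higher, with a median log2 ratio of 0.25, and 7 of 9 measured SLC39 genes were lower, with a median of -0.13, beside 0.10 over all tested genes. Of all 9075 tested genes 5459 were higher and 3616 lower. None of these transporters was more than 2-fold apart, where 1.99% of tested genes were higher and 0.132% lower by that much.

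MTF1, the zinc sensor named above, varied over a range about as wide as that of MT2A. It had 48.0 CPM in recovery, 37.4 CPM at 72 h of inhibitor, 40.4 CPM at 6 h of inhibitor, 35.3 CPM at 72 h untreated and 32.8 CPM at 0 h untreated. At 72 h of inhibitor it was 1.06-fold (1.01 to 1.11) higher than at 72 h untreated, and in recovery 1.36-fold (1.30 to 1.42) higher. At 6 h of inhibitor it was 1.23-fold (1.18 to 1.29) higher than at 0 h untreated, near the 1.21-fold to 1.27-fold of the metallothioneins. By that ratio MTF1 stood above 69.9% of the tested genes, and a link between them was not tested. RNA of a factor does not measure its activity.

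**Figure D5:**
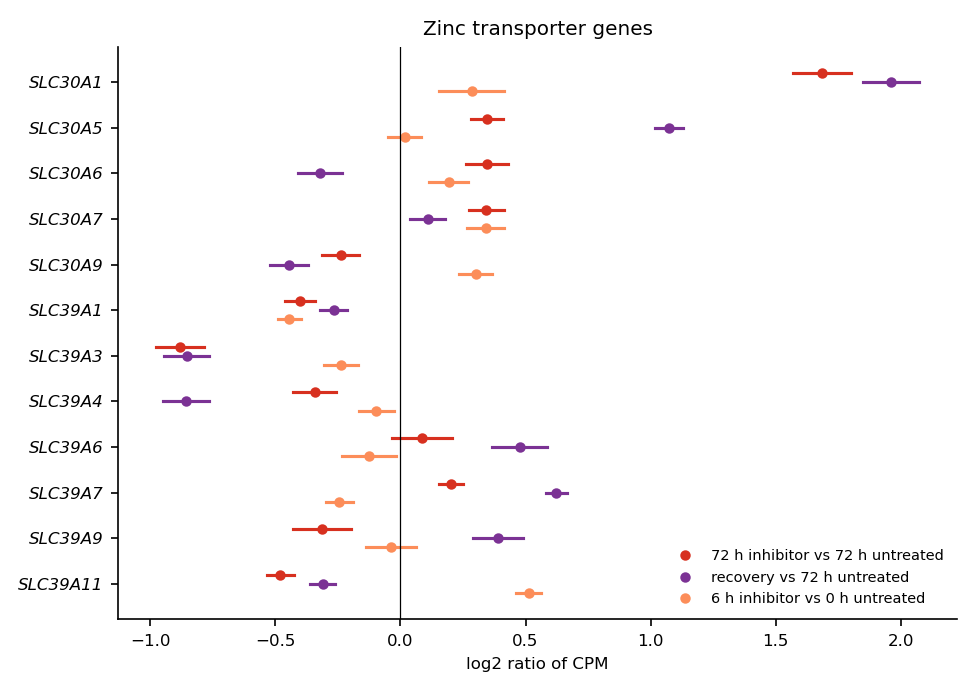
Log2 ratio of CPM of SLC30A1 and 11 other zinc transporter genes, as points with exact 95% intervals of counting error, at 72 h of inhibitor against 72 h untreated, in recovery against 72 h untreated and at 6 h of inhibitor against 0 h untreated. SLC30A1 lies at 1.68 and 1.96 in the 72 h inhibitor and recovery comparisons, and of the others only SLC30A5 passes a log2 ratio of 1, in recovery.

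Genes that handle copper, the other metal bound by metallothioneins, were lower at 72 h of inhibitor. All 6 measured of 9 were below 72 h untreated, with a median log2 ratio of -0.50, and 1 was more than 2-fold lower. Of all 9346 tested genes 5698 were lower, and 7.35% more than 2-fold lower. COMMD1, which acts in copper export, was at 26.7 CPM at 72 h of inhibitor and 54.1 CPM at 72 h untreated, 2.03-fold (1.93 to 2.14) lower. ATOX1, the chaperone that hands copper to the export pumps, was at 133 CPM and 258 CPM, 1.94-fold (1.90 to 1.99) lower. SLC31A1, the copper importer, was 1.09-fold (1.04 to 1.15) lower at 72 h of inhibitor, and in recovery was at 76.8 CPM against 38.1 CPM at 72 h untreated. In that recovery comparison SLC31A1 was the 1 measured copper gene that was higher, and 5 were lower, with a median log2 ratio of -0.28. Of all 9405 tested genes 5765 were lower, with a median of -0.17. SLC31A1 was more than 2-fold higher, as were 4.52% of the tested genes. SLC31A1 was picked out after its values were seen.

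Glucocorticoid response genes were included because metallothionein promoters can answer to steroids. Of 6 measured, 2 were higher and 4 lower at 72 h of inhibitor than at 72 h untreated, with a median log2 ratio of -0.11. Of all 9346 tested genes 5698 were lower, with a median of -0.14. DUSP1, a phosphatase of MAP kinases, was at 11.7 CPM at 72 h of inhibitor and 66.3 CPM at 72 h untreated, 5.65-fold (5.28 to 6.04) lower, and FKBP5, a co-chaperone of the receptor, was 1.84-fold (1.73 to 1.95) lower. In recovery against 72 h untreated, 3 of 6 were more than 2-fold higher, where 4.52% of tested genes were, namely TSC22D3 at 402 CPM against 93.5 CPM, PER1 at 40.7 CPM against 12.7 CPM and KLF9 at 20.1 CPM against 9.17 CPM. FKBP5 and DUSP1 were lower in recovery, at 21.0 and 47.2 CPM against 35.7 and 66.3 CPM at 72 h untreated. The 3 higher genes were named after their values were seen, and the part of steroids in any of these differences was not tested.

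The genes whose pattern over the 5 libraries was nearest to a member were ranked by the distance between centred log2(CPM + 1) profiles, among 7442 genes of at least 20 CPM in some library. For SLC30A1 they were PIM3, a survival kinase, at a distance of 0.18, then CIART, a repressor of the circadian clock, SNHG1, a host transcript of small nucleolar RNAs, BNIP1 and SPSB3, at up to 0.37. PIM3 had 166 CPM in recovery, 149 CPM at 72 h of inhibitor, 52.2 CPM at 6 h of inhibitor, 50.8 CPM at 72 h untreated and 40.0 CPM at 0 h untreated. For the summed metallothioneins they were EHD4, RSRC2, BTG3, CNKSR1 and RPRD1A, at distances of 0.04 to 0.13. Each profile has 5 values, 1 per library.

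Across cells the genes most alike to the summed metallothioneins were ranked by the lowest of their 5 Pearson r, among 4941 genes of at least 20 CPM in every library. They were UBE2S, which extends ubiquitin chains for the anaphase-promoting complex, with r of 0.22 to 0.38, the tubulins TUBB4B and TUBA1B, CKS2, a subunit that binds cyclin-dependent kinases, and S100A10, which binds annexin A2. TUBB4B and CKS2 are in the G2/M list used above. Over the 5 libraries, the lowest r of these genes was 0.18 to 0.22, against 0.40 between MT1X and MT2A. Their highest r was 0.29 to 0.38, against 0.72.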

How the data were processed

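The authors deposited UMI counts, as whole numbers for each gene in each barcode, from libraries made with the 10x 3′ version 3.1 kit, per the labels' protocols. The submitters' processing notes name Cell Ranger 7.1.0 and GRCh38. Which annotation release was used, and if introns were included, is not given in the sources used here.

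Cells with at least 1000 genes and at most 20% mitochondrial UMIs were kept. Doublets were not called and no clusters were made. Counts of kept cells were summed in each library and divided by its total to give CPM, with totals of 85376888 to 114350566 UMIs. Ratios have exact 95% Clopper-Pearson intervals, and the ratio of MT1X to MT2A between libraries one from the counting error of its logarithm. Both cover counting error only. Genes needed 10 CPM in at least 1 of both libraries to be tested, and called means more than 2-fold apart. Intervals after thinning to 5000 UMIs leave out the randomness of the thinning. The members, lists and naming rule were chosen with earlier results of these data known. The rule named every member, the measured zinc transporters and MTF1, copper and glucocorticoid genes more than 1.5-fold apart at 72 h, and the 5 genes most alike to the members. Alternatives changed the cell filter, scaling, thinning, cycle class, expression minimum and untreated library, and 1, keeping cells with 20000 UMIs or more and 10% mitochondrial UMIs or less, was added after seeing the data. Steps were tested on simulated data. Software was Python 3.11.15 with pandas 2.3.3, numpy 2.4.6, scipy 1.17.1 and matplotlib 3.10.9.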

Additional observations from a re-analysis of the deposited data

How the results depend on the processing

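No paired analysis was possible because each group has 1 library. Across the alternatives, SLC30A1 and MT1X kept their direction at 72 h of inhibitor against 72 h untreated, with log2 ratios of 1.64 to 1.89 and 0.83 to 1.00 over 9 settings on the same libraries, and MT2A was -0.41 to -0.26. These settings do not include the cells outside the low cycle class alone, where MT2A was higher, at 0.20. The 2-fold calls of MT1F in recovery against 72 h of inhibitor and at 72 h against 0 h untreated ended under some settings, at lowest 1.87-fold and 1.80-fold. With 0 h untreated in its place, SLC30A1 was 3.5-fold, MT1X 3.07-fold and MT1F 2.20-fold higher at 72 h of inhibitor, and MT1E 2.20-fold higher in recovery. The summed metallothioneins were too near level for a stable sign, and no setting moved them by the 2-fold used to call a gene. Median-of-ratios scaling shifts the log2 ratio of all genes by 0.13, -0.14, 0.16, 0.04, 0.18 and -0.11 in the order of comparisons used next. Log2 ratios of the sum are given for 72 h of inhibitor against 72 h untreated, 6 h of inhibitor against 0 h untreated, 72 h against 6 h of inhibitor, recovery against 72 h of inhibitor, recovery against 72 h untreated, and 72 h against 0 h untreated.

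As reported they were -0.04, 0.32, -0.16, 0.52, 0.48 and 0.20. Median-of-ratios scaling gave 0.0943, 0.18, 0.0012, 0.56, 0.65 and 0.0888. Leaving mitochondrial and ribosomal protein genes out of the totals gave 0.0829, 0.30, -0.0470, 0.42, 0.50 and 0.17. Cells low in both cycle lists gave 0.0105, 0.0225, -0.13, 0.37, 0.38 and -0.12. Thinned cells gave 0.0052 in the first, 0.27, -0.11 and 0.48 in the next 3, and 0.16 in the last. Without the deepest 5% of cells the ratios were 0.00021 in the first, -0.12, 0.47 and 0.47 in the third, the fourth and the fifth, and 0.19 in the last. Cells with 20000 UMIs or more and 10% mitochondrial or less, added after seeing the data, gave -0.0506 in the first, and 0.54, 0.49 and 0.21 in the last 3. The other untreated library gave 0.16, 0.12 and 0.68 in the first, the second and the fifth. The cause of these moves was not tested.

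Single members that changed direction were MT1E at 72 h of inhibitor against 72 h untreated among low cells (log2 ratio -0.0757), MT2A at 72 h against 0 h untreated under median-of-ratios scaling (-0.0462) and among low cells (-0.30), and, with 6 h of inhibitor set against 72 h untreated, MT1E (-0.0518), MT1F (-0.82), MT1X (-0.40) and MT1X relative to MT2A (-0.65). The other alternatives left the direction of each member as reported. Cells outside the low cycle class alone were not among the alternatives, and some directions differed there. One was SLC30A1 in recovery against 72 h of inhibitor, at a log2 ratio of -0.13. Thinned to 10000 UMIs, the share of cells with a metallothionein UMI was 100% in recovery, 99.3% at 72 h of inhibitor, 100% at 6 h of inhibitor, 99.97% at 72 h untreated and 99.9% at 0 h untreated. With no expression minimum 8444 genes, and with one of 50 CPM 276 genes, were more than 2-fold apart at 72 h of inhibitor against 72 h untreated, against 872 as reported.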
